A study of Homo sapiens with 4 samples.

Results

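The 10 tubulin isotypes of HEK-293T cells, a human embryonic kidney line, were compared between wild-type (WT) cells and cells in which THUMPD1 was deleted (THUMPD1 KO). Members were taken by symbol from a table of 18917 genes: the 4 alpha isotypes TUBA1A, TUBA1B, TUBA1C and TUBA4A, and the 6 beta isotypes TUBB, TUBB2A, TUBB2B, TUBB3, TUBB4B and TUBB6. All 10 were among the 13128 genes that passed the filter of at least 1 CPM, a count scaled to library size, in at least 2 libraries. THUMPD1 is the adapter protein needed for acetylation of cytidine in leucine and serine tRNAs.

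RNA was sequenced in 4 libraries, 2 from WT cells and 2 from THUMPD1 KO cells, all named HEK293 in the sample labels and all grown in DMEM with 10% serum and 2 mM glutamine. Per the study's methods, the KO cells were made with CRISPR-Cas9 guides and taken through single-cell sorting, so the genotype and the clone cannot be told apart. The labels do not say whether replicates were separate cultures, so the p-values measure only the spread between these libraries. Library totals ran from 7875722 to 11362363 counts, and a floor of 3 counts corresponded to 0.259 to 0.391 CPM. THUMPD1 itself was counted 356 and 468 times in WT, but 71 and 58 times in KO, a log2 fold change of -2.93 ± 0.17 (SE; edgeR adjusted p = 1.27e-12). Of the 12 tested markers of embryonic kidney and epithelium, 1 was called higher (LHX1) and 1 lower (KRT18) in KO, 16.7% called beside 20.9% of all tested genes. Neither was called without WT replicate 2 or without KO replicate 1, and only KRT18 was called without KO replicate 2. VIM and CDH2 were well covered, whereas PAX8 had at most 6 counts in any library. Markers of fibroblasts, endothelium and blood summed to between 33.2 and 39.6 CPM in the 4 libraries.

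Microtubules are polymers of heterodimers, each of 1 alpha and 1 beta tubulin. The isotypes differ mostly in their acidic C-terminal tails, where tyrosine removal, glutamylation and other modifications take place. Cells hold free tubulin within limits by autoregulation: when free dimers are abundant, TTC5 recognises the first residues of a tubulin chain leaving the ribosome and, through SCAPER and the CCR4-NOT deadenylase, the mRNA being translated is degraded. A difference in a tubulin mRNA can therefore stem from synthesis or from decay, which counts of total RNA do not separate.

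The stretch that encodes the residues read in autoregulation is shown here for the members, since the family is recognised through those residues. Each line gives the first 30 bases of the coding sequence (GENCODE 44, GRCh38), with the first 4 codons in capitals. The coding sequences of TUBA1A, TUBA1B and TUBA1C were identical over these 30 bases.
TUBA1A: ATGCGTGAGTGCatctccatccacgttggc
TUBA1B: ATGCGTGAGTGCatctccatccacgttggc
TUBA1C: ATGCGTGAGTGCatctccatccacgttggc
TUBA4A: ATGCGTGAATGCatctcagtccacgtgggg
TUBB: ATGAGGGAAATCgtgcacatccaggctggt
TUBB2A: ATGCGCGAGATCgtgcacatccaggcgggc
TUBB2B: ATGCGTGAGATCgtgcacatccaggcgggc
TUBB3: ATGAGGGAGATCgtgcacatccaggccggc
TUBB4B: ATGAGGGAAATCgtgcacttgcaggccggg
TUBB6: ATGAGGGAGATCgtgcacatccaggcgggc
The 10 genes used 6 different spellings of the first 4 codons. TUBA4A differed from TUBA1A at 5 of the 30 positions, counted from 1 at the A of the start codon, of which G9A alone lay within the capitals. TUBB2B differed from TUBB2A at 1 position, C6T. The first 4 codons encode Met-Arg-Glu-Cys in every alpha member and Met-Arg-Glu-Ile in every beta member. G9A and C6T therefore change no residue.

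The other end of the coding sequence shows how closely paired TUBB2A and TUBB2B are, which bears on how reads can be assigned between them. Each line gives the last 20 codons before the stop codon (60 bases), for the beta pair on chromosome 6, the members nearest to each other in sequence.
TUBB2A: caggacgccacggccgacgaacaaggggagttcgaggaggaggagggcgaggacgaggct
TUBB2B: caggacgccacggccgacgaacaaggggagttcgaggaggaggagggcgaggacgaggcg
TUBB2A and TUBB2B differed over this stretch only by T60G, counted from 1 at the 5′ end of the stretch. Over the whole coding sequence, TUBA1A and TUBA1B were 97.2% identical, TUBA1B and TUBA1C 96.8%, and TUBB2A and TUBB2B 98.1%. TUBA4A was 84.4% to 85.7% identical to the other alpha isotypes, and all other beta pairs were between 81.0% and 87.7% identical.

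In THUMPD1 KO cells, 1 isotype mRNA was higher and 2 were lower at an adjusted p under 0.05. TUBA1B, the most abundant alpha isotype, rose 1.21-fold. TUBB2B, a beta isotype prominent in the developing nervous system, fell to 0.662 of its WT level, and TUBB4B, a broadly expressed beta isotype, fell to 0.857. In bulk RNA, fewer cells expressing a gene and less RNA of it per cell cannot be told apart. The 3 called of 10 isotypes compare with 20.9% of all tested genes called, 8.79% higher and 12.1% lower. The median log2 fold change of the isotypes was -0.15, beside 0.01 over all tested genes, with 8 isotypes below 0 and 2 above. The 2 genotypes did not overlap in CPM for 7 of the 10 isotypes, which was also the case for 60.4% of all tested genes.

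**Figure D1:**
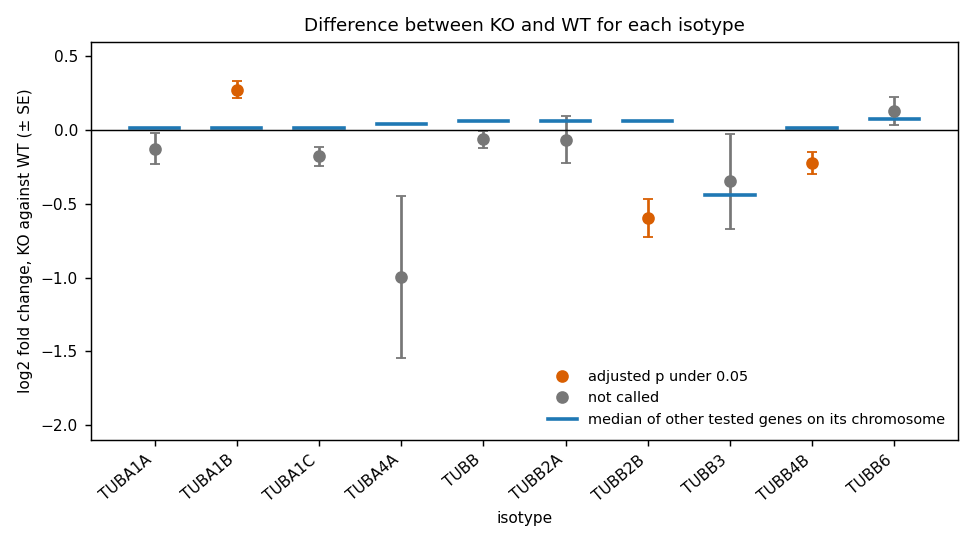
Log2 fold change of each tubulin isotype, KO against WT, as points, with isotypes called at an adjusted p under 0.05 in orange. Bars are the SE derived from the edgeR F statistic, with 2 libraries per genotype. The blue line is the median of the other tested genes on the same chromosome. TUBA1B lies at 0.28, TUBB2B at -0.60 and TUBB4B at -0.22, and the blue line departs clearly from 0 only at TUBB3, where it is at -0.44.

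Levels of different isotypes were compared per kilobase of the canonical transcript. In WT cells TUBA1B was the highest, at 546 ± 7.70 CPM per kb (SD, n = 2), followed by TUBB at 439 ± 3.05 CPM per kb. Both libraries gave this order on this measure, and no other isotype came near these levels. TUBA1C, at 83.5 ± 4.25 CPM per kb, and TUBB4B, at 80.8 ± 0.509 CPM per kb, overlapped between libraries in WT, so their order is not resolved there. The same held for TUBA1A, at 33.5 ± 1.33 CPM per kb, and TUBB6, at 32.3 ± 1.49 CPM per kb. Below them came TUBB2B at 23.6 ± 0.286, TUBB2A at 12.2 ± 0.347, TUBB3 at 4.08 ± 1.69 and TUBA4A at 1.40 ± 0.0931 CPM per kb, with no overlap between neighbours. In KO cells TUBB6, at 35.3 ± 3.17 CPM per kb, stood above TUBA1A, at 30.7 ± 3.15 CPM per kb, but their nearest libraries differed only slightly, at 33.1 for TUBB6 and 33.0 for TUBA1A. The other places in the order were the same in both genotypes. Per kilobase of coding sequence the order was different. In WT, TUBB then had 829 and TUBA1B 656 CPM per kb, and TUBA1C had 175 and TUBB4B 94.6. In KO, TUBB and TUBA1B each had 794 CPM per kb of coding sequence.

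**Figure D2:**
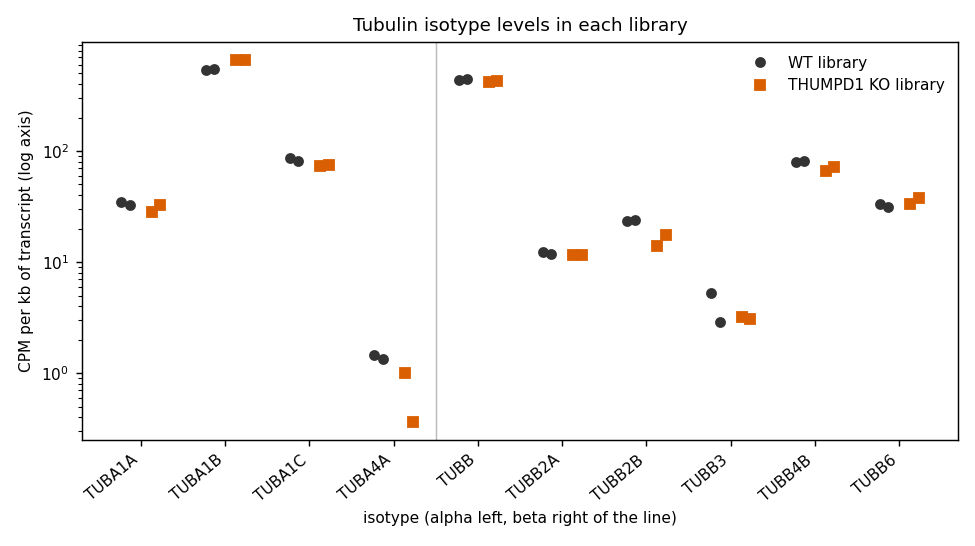
Level of each isotype in each library, in CPM per kilobase of canonical transcript on a log axis, for WT (black circles) and THUMPD1 KO (orange squares), 2 libraries each. TUBA1B and TUBB stand above all others in all 4 libraries, and TUBA4A is the lowest, at 1.46 and 1.33 in WT and 1.01 and 0.367 in KO.

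TUBA1B encodes a ubiquitous alpha isotype and lies on chromosome 12 (GRCh38 12, 49127782 to 49131397, minus strand, 4 exons). It had 879 and 896 CPM in the WT libraries and 1078 and 1070 CPM in the KO libraries. Both KO libraries were thus above both WT libraries, by far more than the libraries of a genotype differed. The log2 fold change was 0.28 ± 0.06 (SE; edgeR adjusted p = 0.00103), and its 95% interval ran from 0.16 to 0.39.

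TUBA1C lies in the same cluster (49188736 to 49274600, plus strand) and encodes a protein that differs from that of TUBA1B mainly in the tail. It had 244 and 227 CPM in WT and 205 and 211 CPM in KO. The genotypes did not overlap, with KO lower, but the difference missed the threshold: the log2 fold change was -0.18 ± 0.06 (SE; edgeR adjusted p = 0.0523). Leaving out WT replicate 2 gave -0.23. With all libraries kept, TUBA1C was called lower with no filter beyond 1 count (edgeR adjusted p = 0.0463). A replicate block in the model also gave a call (edgeR adjusted p = 0.0213), whereas library size alone did not (edgeR adjusted p = 0.314). The side of the threshold on which TUBA1C falls thus depended on the settings.

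TUBA1A, the alpha isotype of postmitotic neurons, lies next to TUBA1C (49184686 to 49189080, minus strand). It had 57.6 and 54.5 CPM in WT and 47.7 and 55.1 CPM in KO. The genotypes overlapped, and the log2 fold change of -0.12 ± 0.11 (SE) did not pass the test (edgeR adjusted p = 0.435). It was -0.02 without KO replicate 1, -0.23 without KO replicate 2 and between these with either WT library left out.

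TUBA4A, whose gene does not encode the final tyrosine that the other alpha members carry, lies on chromosome 2 (219249710 to 219277902, minus strand). It was close to the limit of measurement, with counts of 23 and 30 in WT against 24 and 8 in KO. The log2 fold change was -0.99 ± 0.55 (SE; edgeR adjusted p = 0.21), with a 95% interval from -2.07 to 0.08. KO replicate 2 stood apart from the other libraries, and without it the log2 fold change was -0.46. At this depth the interval holds 0 as well as falls larger than that of any other isotype.

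TUBB, the main beta isotype of dividing cells, lies on chromosome 6 (30717435 to 30725538, plus strand). It had 1099 and 1109 CPM in WT and 1050 and 1067 CPM in KO. KO libraries were both below WT, but by little: the log2 fold change was -0.06 ± 0.06 (SE; edgeR adjusted p = 0.484), with a 95% interval from -0.17 to 0.05. Scaling by library size alone turned the sign, to 0.02.

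TUBB4B, found in ciliary axonemes as well as in cytoplasmic microtubules, lies on chromosome 9 (137241287 to 137243707, plus strand). It had 126 and 127 CPM in WT and 104 and 112 CPM in KO. The genotypes did not overlap, and the log2 fold change was -0.22 ± 0.08 (SE; edgeR adjusted p = 0.0352). Of 11 refits, 7 kept the direction but lost the call, among them DESeq2 (adjusted p = 0.109) and limma-voom (adjusted p = 0.105). Without WT replicate 1, WT replicate 2 or KO replicate 1, the log2 fold change was -0.23, -0.22 or -0.17, none past the threshold in edgeR.

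TUBB2B and TUBB2A are neighbouring genes on chromosome 6 (3223324 to 3231730 and 3153497 to 3157544, both minus strand) that encode nearly the same protein. TUBB2B had 45.0 and 45.8 CPM in WT and 26.7 and 33.5 CPM in KO. Both KO libraries were below both WT libraries, and they differed from each other more than the WT libraries did. The log2 fold change was -0.60 ± 0.13 (SE; edgeR adjusted p = 0.00126), the largest fall among the isotypes that were called. TUBB2A had 20.1 and 19.3 CPM in WT and 18.8 and 18.8 CPM in KO, a log2 fold change of -0.06 ± 0.16 (SE; edgeR adjusted p = 0.817). The 95% interval of TUBB2A, from -0.38 to 0.25, overlapped that of TUBB2B, from -0.84 to -0.35, and the difference between the genes was not tested.

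TUBB3, the beta isotype used as a marker of neurons, lies on chromosome 16 (89921392 to 89938761, plus strand). Its counts were 69 and 54 in WT against 63 and 56 in KO, which is 9.0 and 4.9 CPM against 5.4 and 5.3 CPM. WT replicate 1 was above the other libraries, which were close together. The log2 fold change of -0.35 ± 0.32 (SE; edgeR adjusted p = 0.482) became 0.12 without WT replicate 1, so its sign rests on that library.

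TUBB6, a divergent beta isotype, lies on chromosome 18 (12307669 to 12344320, plus strand). It had 62.7 and 58.8 CPM in WT and 62.2 and 70.6 CPM in KO. The genotypes overlapped, and the log2 fold change was 0.13 ± 0.10 (SE; edgeR adjusted p = 0.373). It was 0.22 without KO replicate 1, 0.04 without KO replicate 2, and 0.08 without WT replicate 2.

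The make-up of each family was then read as the share of its counts held by each isotype, which does not depend on how libraries are scaled to each other. With 2 libraries against 2, a two-sided exact permutation test cannot give a p below 0.33, so no share can pass a threshold. Intervals given for shares are exact (Clopper-Pearson) 95% intervals and cover counting error only.

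TUBA1B held 74.2% and 75.9% of alpha tubulin counts in the WT libraries and 80.9% and 80.0% in the KO libraries. The intervals of the WT libraries ended at 75.1% and 76.6%, below those of the KO libraries, which began at 80.2% and 79.4%. TUBA1C held 20.6% and 19.2% in WT and 15.4% and 15.8% in KO. TUBA1A held 4.87% and 4.62% in WT and 3.58% and 4.12% in KO. For these 3 genes the genotypes did not overlap (exact permutation p = 0.33 each): the mean difference, KO minus WT, was 5.38 percentage points for TUBA1B, -4.35 points for TUBA1C and -0.893 points for TUBA1A. TUBA4A held 0.242% on average in WT and 0.106% in KO. The counting intervals of the nearest WT and KO libraries overlapped for TUBA1A and TUBA4A, and not for TUBA1B and TUBA1C.

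TUBB held 80.7% and 81.3% of beta tubulin counts in WT and 82.9% and 81.6% in KO. TUBB4B held 9.24% and 9.29% in WT and 8.22% and 8.60% in KO. TUBB2B held 3.31% and 3.35% in WT and 2.11% and 2.56% in KO. The genotypes did not overlap for any of them (exact permutation p = 0.33 each). TUBB6 held 4.46 ± 0.214% (SD, n = 2) in WT and 5.16 ± 0.348% in KO, again without overlap. The counting intervals of the nearest WT and KO libraries nevertheless overlapped for TUBB, TUBB4B and TUBB6, and not for TUBB2B. The shares of TUBB2A, 1.44% in WT and 1.46% in KO, and of TUBB3, 0.511% and 0.416%, overlapped between genotypes. With all beta tubulins in the whole, TUBB4A included, TUBB held 76.4% on average in WT and 79.2% in KO.

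**Figure D3:**
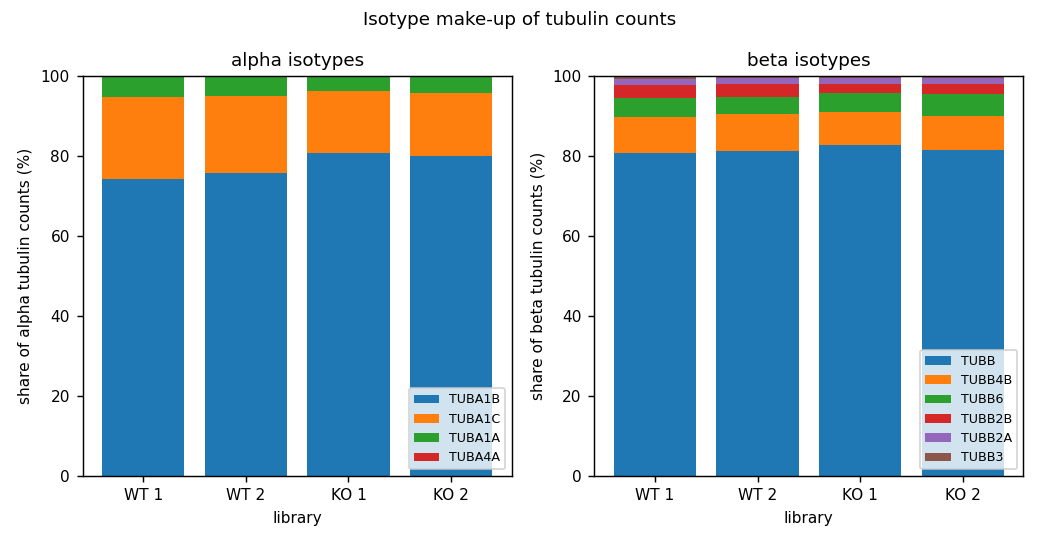
Share of the members' alpha (left) or beta (right) tubulin counts held by each isotype in each library, as stacked bars summing to 100%. The TUBA1B segment is taller in both KO libraries, at 80.9% and 80.0% against 74.2% and 75.9% in WT, and the TUBA1C segment is shorter, while the beta bars differ by at most a few points.

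Summed over the member isotypes alone, alpha tubulin made up 1182 ± 1.91 CPM in WT and 1335 ± 2.97 CPM in KO (SD, n = 2). Beta tubulin made up 1363 ± 2.76 CPM in WT and 1287 ± 28.6 CPM in KO. The ratio of alpha to beta counts was 0.870 and 0.865 in WT and 1.05 and 1.02 in KO, without overlap. The ratio is of counts, not of molecules, since it is not corrected for transcript length. Together the 10 isotypes held 0.248% and 0.246% of all counts in WT and 0.270% in each KO library.

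Ratios between close paralogs gave the same values in another form. Counts of TUBA1B were 3.60 and 3.94 times those of TUBA1C in WT and 5.25 and 5.07 times in KO. Counts of TUBA1B were 15.2 and 16.5 times those of TUBA1A in WT and 22.6 and 19.4 times in KO. The ratio of TUBA1C to TUBA1A, in contrast, was 4.24 and 4.17 in WT and 4.30 and 3.83 in KO, with overlap. Counts of TUBB2B were 2.24 and 2.37 times those of TUBB2A in WT and 1.42 and 1.79 times in KO. Summed within the pair, TUBA1B and TUBA1C had 1123 and 1124 CPM in WT and 1283 and 1281 CPM in KO. TUBB2A and TUBB2B together had 65.1 and 65.1 CPM in WT and 45.5 and 52.3 CPM in KO. Such sums do not depend on how counted reads are divided within a pair.

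For most isotypes, part of the transcript cannot be told from another gene by a single read of 75 bases. All windows of 75 bases along each canonical transcript were looked up in all GENCODE 44 transcripts. TUBB2A shared 59.5% of its windows with other tubulin genes or pseudogenes, TUBB2B 52.1%, TUBA1B 48.4% and TUBA1A 33.0%. TUBA1C shared 18.1%, and the remaining isotypes at most 8.97%. TUBB6 shared none. Between TUBB2A and TUBB2B alone, 864 windows were shared. How the deposited counts treated such reads is not given in the sources used here, so the values of TUBA1A, TUBA1B, TUBA1C, TUBB2A and TUBB2B are uncertain to that extent.

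Overlapping genes set a second limit, since whether counting used strand is also not given. TUBA1B-AS1, annotated on the opposite strand, covered 66.6% of the windows of TUBA1B. STK16 covered 28.1% of those of TUBA4A from the opposite strand, and a gene without a symbol on the same strand covered 92.6% of those of TUBB3. TUBB4B appeared also under its older symbol TUBB2C, with 0 counts in every library.

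Codon use was described because the study asked how loss of THUMPD1 affects decoding of leucine and serine codons. Of the 6 leucine codons, UUA, UUG, CUA and CUU were counted together, a set taken from the ribosome profiling part of the study. TUBA1B used them for 10 of its 32 leucine codons (31.3%), TUBA1C for 28.1%, TUBA1A for 25.0% and TUBA4A for 9.68%. Among beta isotypes, the share was 18.8% in TUBB, 12.1% in TUBB4B, 9.09% in TUBB3, 6.06% in TUBB6, and 3.13% in both TUBB2A and TUBB2B, which hold 1 such codon each. The median over 12740 tested genes was 40.8%, and the 10th percentile was 13.2%. All 10 isotypes were below that median and 6 were below the 10th percentile. The serine content of the isotypes, 4.66% to 7.11% of codons, was below the median of 7.61% for all 10 as well.

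**Figure D4:**
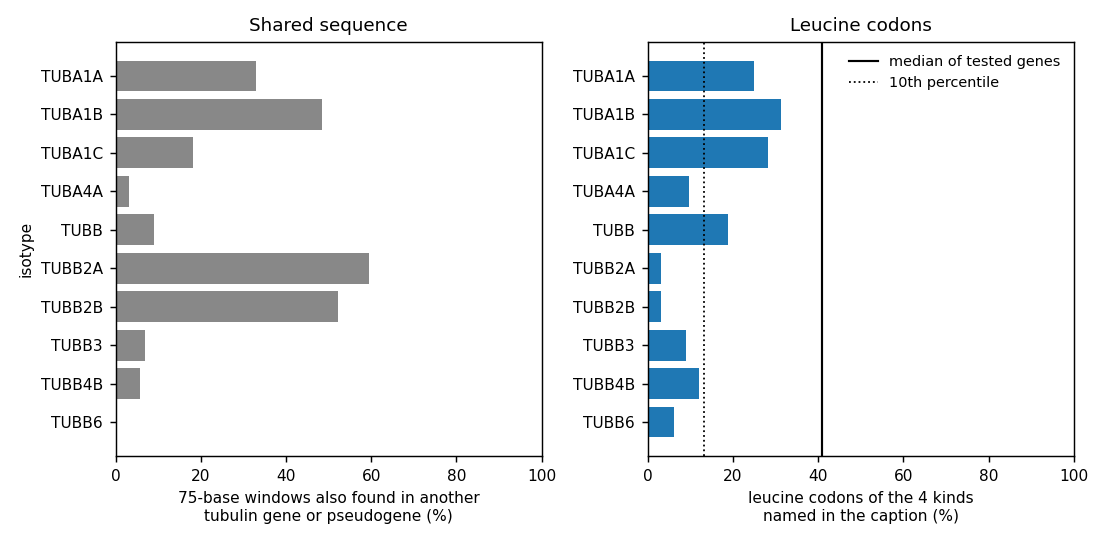
Left, percent of 75-base windows of each isotype's transcript found in another tubulin gene or pseudogene; right, percent of leucine codons that are UUA, UUG, CUA or CUU, with the median (solid line, 40.8%) and the 10th percentile (dotted line, 13.2%) of tested genes. TUBB2A, TUBB2B and TUBA1B share the most windows with relatives, at 59.5%, 52.1% and 48.4%, and every isotype lies left of the median for leucine codons, with TUBA1B the highest at 31.3%.

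The chromosomal surroundings of the members were read from the 3 nearest tested genes on each side. Of all tested genes, 12.1% were lower and 8.79% higher. Some neighbours are members themselves: TUBA1A, TUBA1B and TUBA1C are neighbours of each other, as are TUBB2A and TUBB2B. Around TUBA4A on chromosome 2, 5 of 6 neighbours were lower in KO and none higher, with log2 fold changes from -1.22 to -0.59. They included STK16, which overlaps TUBA4A, at -0.74 ± 0.19 (SE; edgeR adjusted p = 0.00636), the cochaperone gene DNAJB2 at -0.76 and the aminopeptidase gene DNPEP at -1.22. The value of TUBA4A, -0.99, lay within that range, whereas the median over the other genes of chromosome 2 was 0.04. Around TUBB3, 4 of 6 neighbours were lower, and the median over the other 572 tested genes of chromosome 16 was -0.44, near the -0.35 of TUBB3. Around TUBB4B, 3 of 6 neighbours were lower, at -1.14 for RNF208, -0.62 for NRARP and -0.52 for TMEM203. Around TUBB, 2 of 6 were lower, IER3 at -1.13 and MDC1 at -0.23. Around TUBB2B none of the 6 was called, with values from -0.30 to 0.16, and around TUBA1B only KMT2D was called, at -0.16. The only call around TUBA1A and TUBA1C was TUBA1B, and around TUBB2A it was TUBB2B. Around TUBB6 none was called. Whether the number of gene copies differed between the WT and KO cells was not tested.

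Of the 4 other alpha and beta tubulins that could be tested, 2 were lower and none higher, beside 12.1% of all tested genes lower. The count was 1 without WT replicate 1, KO replicate 1 or KO replicate 2. TUBB4A, a beta isotype best known from oligodendrocytes and neurons, had 81.9 and 80.5 CPM in WT and 46.9 and 51.5 CPM in KO. Its libraries did not overlap between genotypes, and it fell to 0.605 of the WT level (log2 fold change -0.72 ± 0.09, SE; edgeR adjusted p = 3.88e-06). TUBA8, a divergent alpha isotype on chromosome 22, had 9.13 and 5.91 CPM in WT and 4.41 and 3.29 CPM in KO (log2 fold change -0.94 ± 0.33, SE; edgeR adjusted p = 0.0447). Its call was lost in 6 of 11 refits, and the median over the other tested genes of chromosome 22 was -0.41. TUBB1, the beta isotype of platelets, was counted 8 and 18 times in WT, 8 and 8 times in KO, and was not called (log2 fold change -0.92 ± 0.70, SE), nor was TUBA3D (0.24 ± 0.56, SE). TUBA3C and TUBB8 had 0 counts in all libraries, which allows up to 0.391 CPM, TUBA3E and TUBAL3 had at most 1 count in any library, and TUBA4B had no entry.

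The next list held the gamma-tubulin ring complex, which nucleates microtubules, and delta and epsilon tubulin. Of its 13 genes, 2 were higher and 3 lower, with a median log2 fold change of 0.02. That is 38.5% called beside 20.9% of all tested genes, but 0 were higher and 2 lower under DESeq2, without WT replicate 2 or without KO replicate 1. TUBG1, the main gamma tubulin, had 214 and 216 CPM in WT and 176 and 179 CPM in KO and fell by 0.28 on the log2 scale (edgeR adjusted p = 0.00272). TUBGCP6, a ring complex subunit on chromosome 22, fell by 0.52 and MZT2B by 0.23, while TUBD1, delta tubulin, rose by 0.49 and NEDD1, the attachment factor of the ring complex, rose by 0.36 on the log2 scale. Beside TUBGCP6, the median log2 fold change over the other tested genes of chromosome 22 was -0.41. The calls of MZT2B, NEDD1 and TUBD1 were lost in 7, 4 and 3 of 11 refits.

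Of the 13 folding factors, 3 were higher and 1 lower (30.8% called beside 20.9% of all tested genes), with a median log2 fold change of 0.04. TBCA, a cofactor that holds beta tubulin before dimers form, rose from 209 ± 5.33 to 252 ± 4.01 CPM (SD, n = 2; edgeR adjusted p = 0.00264). The prefoldin subunits, which pass new chains to the chaperonin, went both ways: PFDN4 rose by 0.54 and PFDN5 by 0.29 on the log2 scale, whereas PFDN2 fell by 0.46. These 4 calls held in all 11 refits.

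Of the 12 autoregulation factors, 2 were lower and none higher, a share of 16.7% called beside the 20.9% of all tested genes. The count was 0 without KO replicate 1 and 1 without WT replicate 2 or KO replicate 2. TTC5, the factor that reads the nascent N terminus, had 43.95 and 45.68 CPM in WT and 34.6 and 34.9 CPM in KO, without overlap. Its log2 fold change was -0.37 ± 0.11 (SE; edgeR adjusted p = 0.0229), and the call was lost in 5 of 11 refits. CNOT6, a deadenylase of the CCR4-NOT complex, fell by 0.27 on the log2 scale. SCAPER, which links TTC5 to that complex, overlapped between genotypes, at 44.8 ± 3.40 CPM in WT and 48.7 ± 2.92 CPM in KO (SD, n = 2).

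Of the 26 tested genes for enzymes that modify tubulin and for their partners, 2 were higher and 2 lower, with a median log2 fold change of 0.09. That is 15.4% called beside 20.9% of all tested genes, and 1 was higher and 1 lower under DESeq2, without WT replicate 1 or without KO replicate 1. The glutamylase gene TTLL7 rose 1.48-fold, a call lost in 3 of 11 refits, and the deglutamylase gene AGTPBP1 1.34-fold. TTLL12, on chromosome 22, had 265 and 271 CPM in WT and 151 and 153 CPM in KO. That was the largest fall of the list, to 0.567 of the WT level (edgeR adjusted p = 8.97e-10). Its log2 fold change was -0.82, beside a median of -0.41 over the other tested genes of chromosome 22. VASH1, which removes the C-terminal tyrosine of alpha tubulin, fell to 0.846, a call lost in 6 of 11 refits. Its relative VASH2 and their partner SVBP were not called, at log2 fold changes of -0.10 and 0.28, nor was HDAC6, a tubulin deacetylase, at -0.18. The tyrosine ligase gene TTL, at 0.17 (edgeR adjusted p = 0.0832), was called higher in 4 of 11 refits, among them limma-voom (adjusted p = 0.0257). ATAT1, the acetyltransferase of alpha tubulin, had a log2 fold change of -0.38 (edgeR adjusted p = 0.0907).

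Of the 35 tested microtubule-binding proteins, 4 were higher and 6 lower, with a median log2 fold change of 0.01. That is 28.6% called beside 20.9% of all tested genes, but the count depended on single libraries: 4 were called, none of them higher, without KO replicate 1, 6 without WT replicate 2 and 14 without WT replicate 1. MAPT, the gene of tau, had 42.0 and 42.8 CPM in WT and 27.0 and 25.4 CPM in KO and fell to 0.619 (edgeR adjusted p = 0.000221). CAMSAP3, which protects minus ends, fell to 0.700 and MAP7D1, a kinesin cofactor, to 0.705. The severing-enzyme relatives FIGN and FIGNL1 rose 1.38-fold and 1.25-fold, TACC1, a centrosomal protein gene, 1.37-fold, and STMN1, which binds free dimers, 1.17-fold. The calls of FIGN and FIGNL1 were each lost in 3 of 11 refits, those of CAMSAP3 and STMN1 in 2 and that of TACC1 in 1, and FIGNL1 went from a log2 fold change of 0.32 to 0.12 without WT replicate 2.

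**Figure D5:**
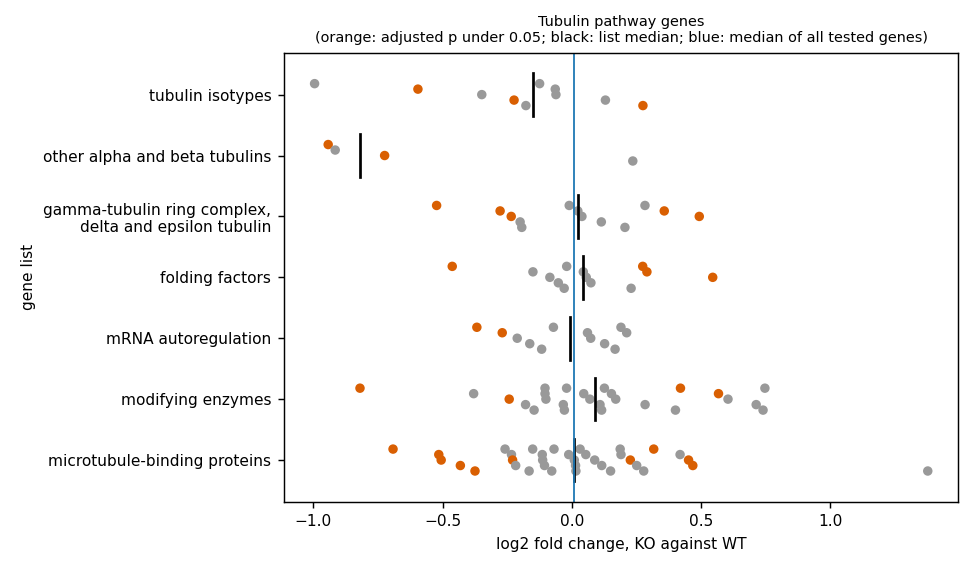
Log2 fold change (KO against WT) of each tested gene in 7 lists of the tubulin pathway, with genes called at an adjusted p under 0.05 in orange, others in grey, each list's median as a black bar and the median of all tested genes as a blue line. The medians lie close to the blue line except for the tubulin isotypes, at -0.15, and the 4 other alpha and beta tubulins, at -0.82.

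Since TUBB2B, TUBB3, TUBB4A, TUBA1A and MAPT are all prominent in neurons, markers of neurons were read in the same libraries. Of 20 markers, 16 were tested, 3 of them higher and 2 lower, 31.2% called beside 20.9% of all tested genes. The count was 8 without WT replicate 1 and 3 without KO replicate 2. Their summed level was 577 and 555 CPM in WT and 455 and 447 CPM in KO, but 392 and 378 CPM against 427 and 424 CPM without NEFM. NEFM, a neurofilament gene, fell from 181 ± 5.50 to 24.7 ± 2.36 CPM (SD, n = 2), and UCHL1 fell by 0.43 on the log2 scale. NCAM1 rose 2.06-fold and NEFL, another neurofilament gene, 1.27-fold. The third marker called higher was SNAP25, with counts of 5 and 3 in WT against 23 and 21 in KO. DCX, STMN2, ELAVL3 and ELAVL4 had at most 8 counts in any library. The part of these markers in the tubulin results was not tested.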

How the data were processed

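Paired-end libraries of total RNA, 2 from WT and 2 from KO cells, were made with a ribosomal RNA depletion kit per the labels. The study's methods describe 3 samples per genotype, another kit and a pipeline of STAR and RSEM on GRCh38. The submitters' processing notes name hg19. Which pipeline made the table is not given in the sources used here. The table deposited by the authors holds raw counts per gene symbol, whole numbers that were not normalized. They also deposited their own comparison (log2 fold changes, p-values), which was not used. Columns were matched to samples by title.

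Counts were fitted in edgeR 4.0.16 (R 4.3.3; TMM scaling, glmQLFit and glmQLFTest, genotype only) over the 13128 genes that reached 1 CPM in 2 or more libraries. P-values were adjusted by Benjamini-Hochberg over all of them and called under 0.05. The script was tested on simulated data. The study's methods name limma-voom, which is an alternative here because the unit is counts. The SE of a log2 fold change was derived from the test, as its absolute value over the square root of the F statistic. Intervals of fold changes are 95% intervals built on that SE with a normal approximation, so they may be somewhat too narrow. CPM use TMM-scaled totals. DESeq2 1.42.0, limma 3.58.1, other scalings and filters, a replicate block and leaving out each library were alternatives. Positions, lengths and sequences come from GENCODE 44 (GRCh38), matched by symbol for all 10 isotypes, and the table itself holds no coordinates. Shares per length used canonical transcripts.

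Members and lists were chosen with earlier results of these data known. Genes named were all isotypes and other alpha and beta tubulins, the up to 3 largest rises and 3 largest falls of each other list among those called and averaging 5 CPM or more, and, whatever their values, TTC5, SCAPER, ATAT1, HDAC6, TTL, VASH1, VASH2, SVBP, STMN1, TUBG1 and MAPT. The 3 nearest tested genes on each side of an isotype were also read. SNAP25, the 4 neuronal markers with few counts, LHX1, VIM, CDH2 and PAX8 were named after their values were seen.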

Additional observations from a re-analysis of the deposited data

How the results depend on the processing

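TUBA1B was called higher and TUBB2B lower in all 11 refits, with log2 fold changes of 0.26 to 0.36 and -0.76 to -0.43. TUBB4B was not called with library size alone (-0.14), the upper quartile (-0.20), DESeq2 (-0.22) or limma-voom (-0.18), and ran from -0.28 to -0.17 with 1 library left out. TUBA1C was called lower without a filter beyond 1 count (-0.18), and ran from -0.23 to -0.13 with 1 library left out. With library size alone, TUBB and TUBB2A turned to 0.023 and 0.021, and TUBB3 ran from -0.75 to 0.12 with 1 library left out, turning only without WT replicate 1. Library size alone moved the median of all tested genes from 0.01 to 0.09, and 35.8% of 3239 calls were then lower, against 58.0% of 2748. DESeq2 called 1764 genes, and fits with 1 library left out called 1617 to 2599. Per transcript length, the share of TUBA1B was 4.10 points higher in KO, that of TUBA1C -2.94 points and that of TUBB4B -1.19 points. With all beta tubulins as denominator, TUBB4A included, the share of TUBB was 2.79 points higher in KO, beside 1.23 points over the members alone. Library size alone drops the TMM factors, 0.974 and 0.968 in WT and 1.039 and 1.021 in KO, which moves the log2 fold changes upward together. The cause of the other shifts was not tested, apart from the changed denominators and the fewer samples in fits with 1 library left out.

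Replicate numbers are shared between genotypes. Deviations of same-numbered libraries correlated at 0.0301 over 13128 genes and at 0.0614 over the 11113 genes averaging 5 CPM or more. With only 2 pairs, this cannot tell whether same-numbered libraries were handled together. With the replicate block, 3222 genes were called, and TUBA1C was called lower (-0.18, edgeR adjusted p = 0.0213) along with TUBA1B, TUBB2B and TUBB4B. Of 396 refits of 36 other named genes, 341 kept direction and side of the threshold, 51 lost the call, 4 gained it and 0 turned. With 10 counts required in every library, TUBA4A could not be tested. Depth limits TUBA4A and TUBB3 most, at 8 to 30 and 54 to 69 counts.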
